A study of Mus musculus with 9 samples.

Results

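Platelet and megakaryocyte genes were followed in RNA-seq of CD11b+ mouse bone marrow cells. The group holds 9 genes, Ppbp, Pf4, Itga2b, Itgb3, Gp1bb, Gp9, Gp6, Treml1 and Clec1b, out of 23337 genes counted, and was chosen by gene name. All 9 were found in the counts of all 9 libraries, and 8 of them, all but Gp6, passed the filter on low counts that 12553 genes passed. Cells came from femurs and tibias of 9 male C57BL/6 mice aged 3 to 6 weeks, with 1 library per mouse and 3 mice in each of 3 groups. The PBS group received tail vein injections of 100 µl PBS on days 1, 3 and 5. The EnzR EVs group received, on the same days, 10 µg of vesicle protein in 100 µl, the vesicles coming from enzalutamide-resistant CWR-R1 human prostate cancer cells. The EnzR EVs + HDL NPs group received those vesicles too, plus high-density lipoprotein-mimicking nanoparticles on days 0, 2 and 4. No group received HDL NPs alone. Red cells were lysed and CD11b+ cells were taken by magnetic positive selection, so that what is measured is a myeloid fraction and not purified megakaryocytes or platelets.

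Megakaryocytes are the large marrow cells that shed platelets, the anucleate cell fragments that start blood clotting. Platelets store chemokines such as those encoded by Ppbp and Pf4 in their alpha granules, bind fibrinogen through the integrin of Itga2b and Itgb3, hold on to von Willebrand factor through the glycoprotein Ib-IX-V complex, and respond to collagen and podoplanin through the receptors encoded by Gp6 and Clec1b. Platelets attach readily to neutrophils and monocytes, which carry CD11b. In such a mixed sample, fewer platelets or megakaryocytes and less RNA per cell cannot be told apart.

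Values are TMM-scaled CPM, that is, counts as a rate of the library total after correction by the TMM method. The label of the sort held in all libraries: Itgam, which encodes CD11b, stood between 1389 and 2006 CPM, and the 11 neutrophil markers listed summed to between 31693 and 151350 CPM. Total counts ran from 2575776 to 18110561, and 3 counts, the floor used here, corresponded to between 0.160 and 1.65 CPM. The libraries EnzR EVs replicate 1 and PBS replicate 1 stood apart with the lowest totals, 2575776 and 6006087, and with 42.7% and 20.3% of their counts on the ribosomal RNA gene Rn45s, against 14.2% in EnzR EVs replicate 3 and 0.657% to 2.87% in the other libraries. Members are therefore given for each mouse, and each comparison was also made without those 2 libraries. Floors and intervals cover counting error only.

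Ppbp and Pf4 are neighbouring chemokine genes that differed in how far they varied. Of the members, Gp9 had the smallest unadjusted p in EnzR EVs against PBS. Clec1b was the only member with groups that did not overlap. That was in EnzR EVs + HDL NPs against EnzR EVs, as for 17.6% of all genes. Neither passed the adjusted threshold. Upstream sequences of these 4 members are shown as a description. They are the 250 bases before the annotated start in RefSeq (GRCm38.p6, the assembly of mm10), written 5′ to 3′ on the gene's strand, with capitals marking GATAA, the core letters bound by GATA factors, and GGAAG, the core letters bound by ETS factors, or their reverse complements TTATC and CTTCC.
Ppbp, chr5:90768268-90768517, plus strand: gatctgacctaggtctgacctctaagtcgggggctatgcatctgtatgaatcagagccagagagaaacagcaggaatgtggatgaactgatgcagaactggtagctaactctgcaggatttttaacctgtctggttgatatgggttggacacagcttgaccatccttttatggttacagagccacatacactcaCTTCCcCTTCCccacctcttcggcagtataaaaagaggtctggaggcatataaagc
Pf4, chr5:90772185-90772434, plus strand: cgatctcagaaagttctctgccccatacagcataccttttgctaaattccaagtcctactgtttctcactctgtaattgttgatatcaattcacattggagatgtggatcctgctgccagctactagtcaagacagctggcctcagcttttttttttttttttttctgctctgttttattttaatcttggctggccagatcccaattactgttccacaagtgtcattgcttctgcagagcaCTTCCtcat
Gp9, chr6:87777820-87778069, plus strand: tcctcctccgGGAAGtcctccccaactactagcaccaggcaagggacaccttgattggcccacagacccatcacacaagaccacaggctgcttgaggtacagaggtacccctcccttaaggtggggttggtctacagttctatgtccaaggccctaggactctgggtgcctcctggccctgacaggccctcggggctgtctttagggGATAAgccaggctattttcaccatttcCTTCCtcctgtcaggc
Clec1b, chr6:129397047-129397296, plus strand: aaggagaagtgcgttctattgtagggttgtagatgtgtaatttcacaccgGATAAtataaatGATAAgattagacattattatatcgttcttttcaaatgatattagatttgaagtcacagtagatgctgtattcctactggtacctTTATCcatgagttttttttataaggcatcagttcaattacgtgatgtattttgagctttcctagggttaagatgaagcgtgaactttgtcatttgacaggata
GATA1 and the ETS factor FLI1 are known regulators of megakaryocyte genes. Of the 8 members with an entry (Itgb3 has none in the table used), 3 held GATAA on either strand (Gp9, Gp6 and Clec1b), whereas 22.6% of all 32851 upstream windows of the same length did. GGAAG was present in 6 of the 8, against 64.1% of all windows. Both were present in 1 of the 8, Gp9, against 13.2%. No match of one overlapped a match of the other in the members. Ppbp held 2 GGAAG matches on the reverse strand, at 56 to 52 and 50 to 46 bases before the start, and Pf4 held 1, at 9 to 5 bases. Clec1b held 3 GATAA matches, at 200 to 196 and 188 to 184 bases on its own strand and at 103 to 99 on the other. A match to these letters is a description of the sequence and not a bound site.

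Ppbp, which encodes pro-platelet basic protein, the precursor of the neutrophil chemoattractant CXCL7, varied more between mice than any other member. It lies at chr5:90768518-90770063 on the plus strand. Its level was 0.352, 25.5 and 38.2 CPM in PBS replicates 1, 2 and 3, 0.549, 6.23 and 15.8 CPM with EnzR EVs, and 4.90, 15.2 and 13.1 CPM with EnzR EVs + HDL NPs. The 2 lowest values rest on 2 counts in PBS replicate 1 and 1 count in EnzR EVs replicate 1, at or under the floor, while 443 and 668 counts were found in the other PBS libraries. Within the PBS group replicate 3 was 109-fold above replicate 1 (exact 95% interval of the ratio 29.9 to 898), and within the EnzR EVs group the same ratio was 28.9 (5.09 to 1149). The group means, 21.3 ± 19.3, 7.54 ± 7.73 and 11.1 ± 5.44 CPM (SD, n = 3), therefore overlapped widely. Ppbp is among the genes that the study displayed for EnzR EVs, a choice made on these same libraries, so its direction here is not independent evidence.

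Pf4, which encodes platelet factor 4 (CXCL4), lies 2371 bases downstream of Ppbp on the same strand (chr5:90772435-90773383). It stood at 4.05, 13.1 and 16.7 CPM in the PBS mice, 9.88, 4.15 and 17.7 CPM with EnzR EVs, and 4.11, 7.39 and 8.66 CPM with EnzR EVs + HDL NPs. The span within the PBS group, 4.13-fold, was far below that of Ppbp, and EnzR EVs replicate 1, nearly without Ppbp, held more Pf4 than replicate 2. Ppbp accordingly made up 66.0% and 69.6% of the counts on both genes in PBS replicates 2 and 3 but 8.0% in PBS replicate 1 (2 of 25 counts, exact binomial 95% interval 0.984% to 26.0%). With EnzR EVs the share was 5.26% in replicate 1 (1 of 19 counts, 0.133% to 26.0%), 60.0% in replicate 2 and 47.2% in replicate 3. With EnzR EVs + HDL NPs it was 54.4%, 67.3% and 60.1%. The 2 libraries with most Rn45s were thus those where Ppbp was depleted relative to its neighbour, with intervals apart from those of the 7 other libraries. The part of library quality in this was not tested.

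**Figure D1:**
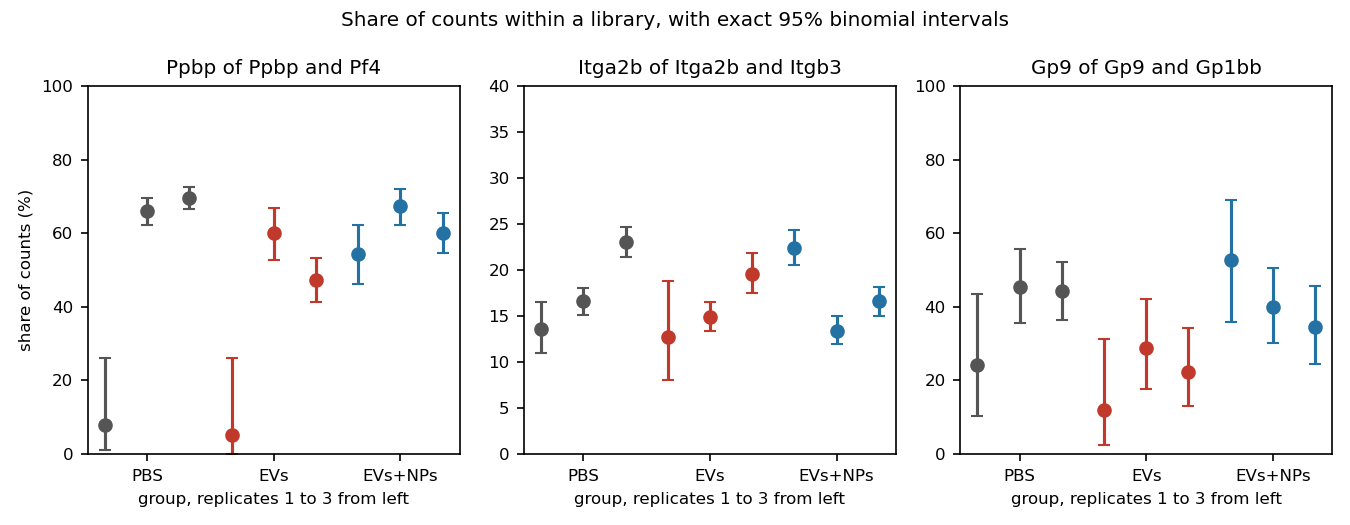
Share of counts within each library (vertical axis, percent) for Ppbp of Ppbp and Pf4, Itga2b of Itga2b and Itgb3, and Gp9 of Gp9 and Gp1bb. Points are libraries in the order of replicates 1 to 3 within each group, bars are exact 95% binomial intervals, and the middle panel has a shorter axis. The Ppbp share is 8.0% and 5.26% in replicate 1 of PBS and EnzR EVs and between 47.2% and 69.6% in the other 7 libraries.

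The integrin genes Itga2b and Itgb3 encode the alpha and beta chains of the platelet fibrinogen receptor, the beta chain also pairing with the alpha V chain on other cells, osteoclasts and macrophages among them. Itgb3 (chr11:104608000-104670476, plus strand) was the steadiest member, at 97.5, 117 and 119 CPM in PBS mice, 79.0, 94.6 and 121 CPM with EnzR EVs, and 85.9, 111 and 125 CPM with EnzR EVs + HDL NPs. Itga2b (chr11:102453297-102470122, minus strand), the chain restricted to the megakaryocyte lineage and early progenitors, stood at 15.3, 23.3 and 35.5 CPM, then 11.5, 16.6 and 29.4 CPM, then 24.8, 17.2 and 24.9 CPM in the same order. Both overlapped between all groups. Itga2b took between 12.7% and 23.0% of the counts on the pair, so most counts fell on Itgb3 in every library. Per kilobase of exon the lowest Itgb3 level, 13.4 CPM per kb, lay above the highest Itga2b level, 6.51 CPM per kb.

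Gp1bb and Gp9 encode the glycoprotein Ib beta and IX subunits of the von Willebrand factor receptor. Gp9 (chr6:87778072-87779768, plus strand) stood at 1.23, 2.65 and 4.18 CPM in PBS mice, 1.65, 0.905 and 1.77 CPM with EnzR EVs (3 counts in replicate 1), and 1.13, 2.27 and 2.03 CPM with EnzR EVs + HDL NPs. The upper PBS values lay above all EnzR EVs values, but PBS replicate 1 lay among them. Gp1bb (chr16:18620317-18622403, minus strand) read differently from the rest, at 3.87, 3.16 and 5.26 CPM, then 12.1, 2.24 and 6.15 CPM, then 1.01, 3.40 and 3.84 CPM. Its highest value of all mice fell in EnzR EVs replicate 1, which was the lowest of its own group for 6 of the other 8 members. For Gp6 and Treml1 among these, the floor of that library leaves the order unsettled. In GENCODE M21, 91.1% of its exon bases (1902 of 2087) also belong to exons of Sept5, a septin gene on the same strand that stood at 67.5 to 137 CPM, and 41.5% to Gm49601. The study counted reads with a UCSC annotation of mm10, in which this overlap was not examined. If it holds there, reads could be assigned to either gene or dropped, so the Gp1bb values are uncertain.

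The receptors that signal through immunoreceptor motifs had the lowest levels per kilobase of exon. Clec1b encodes CLEC-2, the podoplanin receptor (chr6:129397297-129409335, plus strand), with 3.61% of its exon bases shared with Clec9a. It stood at 2.29, 6.15 and 8.70 CPM in PBS mice, 2.74, 4.20 and 3.78 CPM with EnzR EVs, and 4.90, 8.05 and 6.78 CPM with EnzR EVs + HDL NPs. The lowest mouse given HDL NPs, at 4.90 CPM, exceeded the highest mouse given EnzR EVs alone, at 4.20 CPM, while the PBS mice spanned both groups. Treml1, which encodes the alpha granule receptor TLT-1 (chr17:48359916-48367176, plus strand), stood at 0.528, 1.84 and 4.06 CPM, then 0.549, 0.585 and 2.60 CPM, then 0.113, 1.01 and 1.61 CPM, with 1 to 3 counts in replicate 1 of each group. Gp6, the collagen receptor glycoprotein VI (chr7:4363965-4397744, minus strand), had 0, 9 and 27 counts in PBS mice, 0, 4 and 2 counts with EnzR EVs and 2, 11 and 8 counts with EnzR EVs + HDL NPs. A count of 0 allows up to 0.528 CPM in PBS replicate 1 and 1.65 CPM in EnzR EVs replicate 1, so a lack of Gp6 there was not detectable at this depth.

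**Figure D2:**
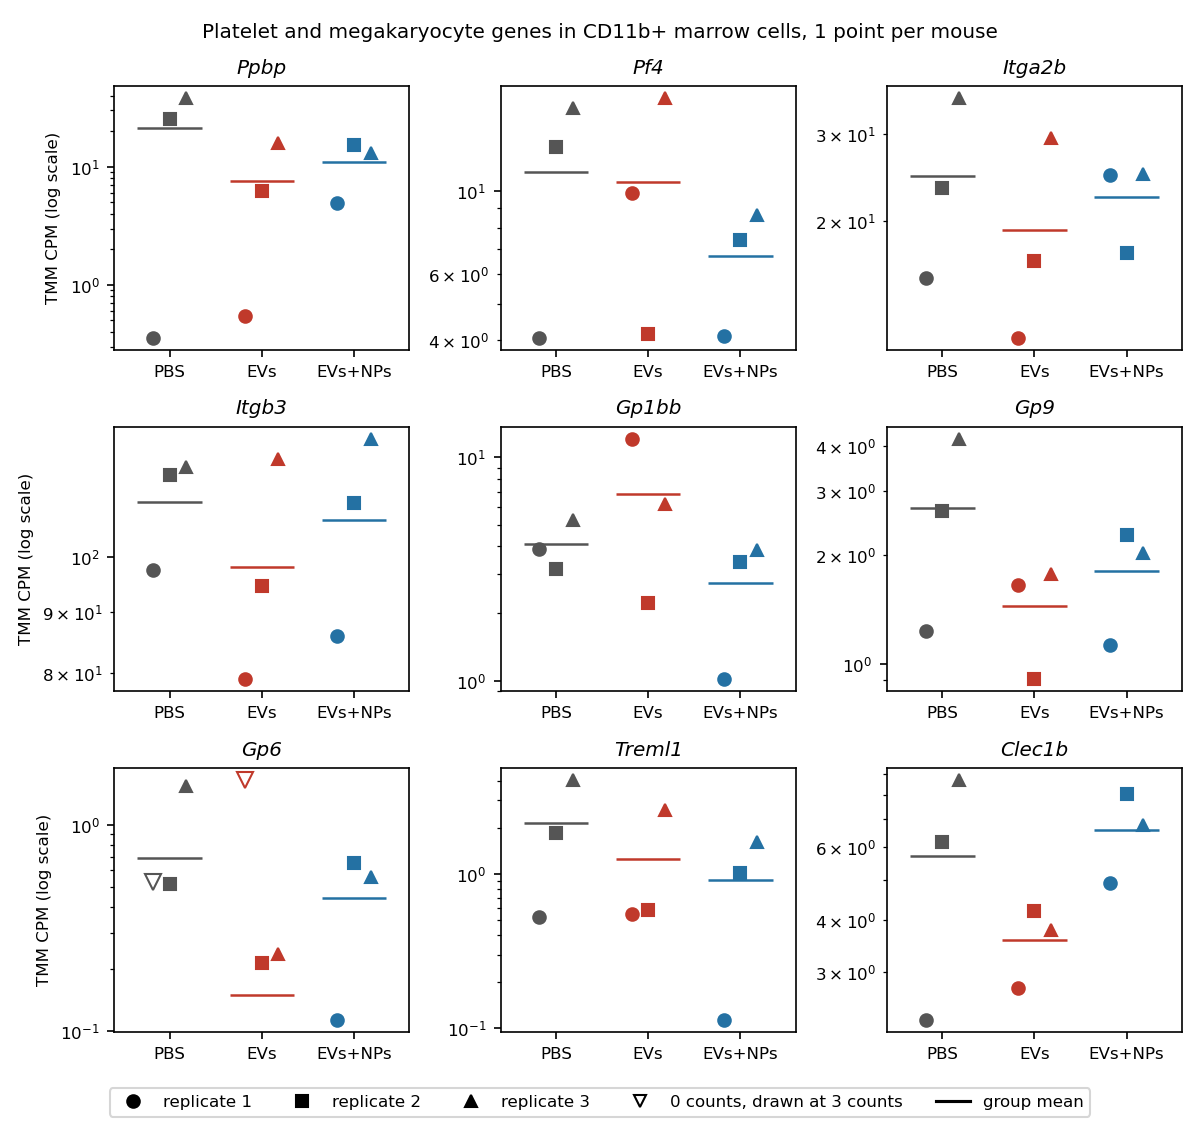
TMM CPM on a log axis for the 9 members, 1 point per mouse, with shape giving the replicate number and the line the group mean. Open triangles are libraries with 0 counts, drawn at the level of 3 counts, and axes differ between panels. Ppbp spans 0.352 to 38.2 CPM within the PBS group, whereas Itgb3 stays between 79.0 and 125 CPM over all 9 mice.

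Ranked by the median over 9 mice per kilobase of exon, the order was Itgb3 (18.8 CPM per kb), Ppbp (12.06), Pf4 (12.01), Itga2b (4.27), Gp9 (2.01), Gp1bb (1.84), Clec1b (0.960), Treml1 (0.723) and Gp6 (0.0401). The ranges of every pair of neighbours in this order overlapped. The length is that of all annotated exons merged, which lowers the value of genes with long minor isoforms.

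The members other than Gp1bb varied together from mouse to mouse, and less by group. Averaged over the 8 tested members, each on the log2 CPM scale relative to its own mean, the libraries stood at -0.95, 0.53 and 1.09 in PBS replicates 1, 2 and 3, at -0.54, -0.50 and 0.57 with EnzR EVs and at -0.75, 0.21 and 0.34 with EnzR EVs + HDL NPs. PBS mice thus held both the lowest and the highest value. Replicate 1 was the lowest of its group for 8 of the 9 members in PBS, 6 with EnzR EVs and 8 with EnzR EVs + HDL NPs. It was lowest in all 3 groups for 4 of the 8 tested members (Ppbp, Itgb3, Treml1 and Clec1b), against 11.4% of all genes tested. Some of these ranks rest on values under the floor. The floor of EnzR EVs replicate 1, 1.65 CPM, lay above Gp6 and Treml1 of replicate 2 (0.213 and 0.585 CPM). The floor of PBS replicate 1, 0.528 CPM, lay above Gp6 of replicate 2 (0.518 CPM). The order of Gp6 in those groups and of Treml1 with EnzR EVs is therefore not settled. EnzR EVs + HDL NPs replicate 1 had 15602936 counts and 0.763% Rn45s. Its average of -0.75 was the lowest of its group, but its Itga2b and Clec1b lay above the gene's mean (0.24 and 0.015). The part of library total and Rn45s in the members' levels was not tested. The labels do not say what a replicate number stands for.

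**Figure D3:**
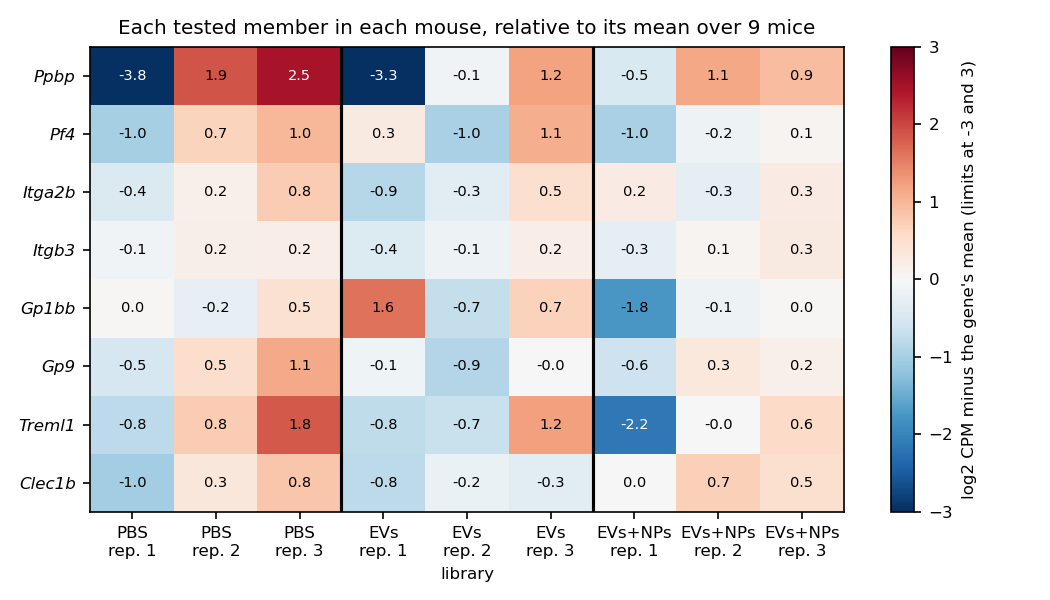
Log2 CPM of each tested member (rows) in each library (columns) minus the mean of that gene over the 9 libraries, with colour limits at -3 and 3 and group borders as black lines. PBS replicate 1 is below the gene's mean for all members but Gp1bb, and PBS replicate 3 is above it for every member.

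The spread within groups, pooled over the 3 groups on the log2 CPM scale, had a median of 0.766 over the members, against 0.361 over all genes tested. Ppbp had an SD of 2.45, above that of 99.9% of genes, and Treml1 one of 1.30, while Itgb3 had 0.255. The biological coefficient of variation from edgeR, which allows for counting error, was 0.916 for Ppbp, 0.728 for Treml1 and 0.197 for Itgb3, against a median of 0.230 over all genes. Group membership took a median of 14.7% of the variation of a member, against 27.5% for all genes, and replicate number took 52.9%, against 29.3%. By group the share ran from 6.78% for Ppbp to 31.9% for Clec1b. Leaving out Gp1bb, the 21 pairs of tested members had Pearson correlations over the 9 libraries from 0.369 to 0.878, median 0.637, the highest being Ppbp with Clec1b. The 7 pairs with Gp1bb ran from -0.254 to 0.615, median 0.065. These correlations describe libraries that share depth and Rn45s differences as well as sorting, and carry no test.

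EnzR EVs against PBS asked whether tumour vesicles altered these transcripts in marrow myeloid cells. In 7 of the 8 tested members the log2 fold change was below 0, with a median of -0.49 against -0.03 over all genes tested, and none passed the test. Marker lists of other cells were below 0 as well in this comparison, with medians of -1.09 (erythroid, 8 of 9 genes below 0), -1.01 (B and plasma cell, 9 of 9), -0.72 (marrow macrophage, 10 of 11), -0.48 (mast cell and basophil, 6 of 7), -0.44 (stroma and endothelium, 5 of 7), -0.39 (T and NK cell, 5 of 6), -0.31 (monocyte, 9 of 9) and -0.16 (neutrophil, 11 of 11). The median of the members lay within this range. The largest were Ppbp at -1.36 (SE 0.99, 95% interval -3.55 to 0.83, edgeR adjusted p = 0.928) and Gp9 at -1.06 (SE 0.53, interval -2.23 to 0.11, edgeR adjusted p = 0.928). Clec1b had -0.65 (SE 0.43), Treml1 -0.78 (SE 0.90), Itga2b -0.33 (SE 0.36), Itgb3 -0.17 (SE 0.20), Pf4 -0.15 (SE 0.57), and Gp1bb 0.52 (SE 0.62), the exception in sign, which was -0.073 by limma voom and -0.073 without the 2 lowest totals. Adjusted p from edgeR lay between 0.928 and 0.976. By edgeR 0 of 8 members passed an adjusted p of 0.05 (0% of all genes) and 0 an unadjusted p of 0.05 (3.47% of all genes). DESeq2 called 0 members (0.129% of all genes it tested) and gave Treml1 no adjusted p, limma voom called 0 (0% of all genes), and limma voom with sample quality weights 0 (15.9% of all genes). The groups overlapped for all 8, whereas they did not for 7.96% of all genes. The intervals allow a Ppbp level from 3.55 log2 units below to 0.83 above that of PBS, and for Itgb3 only from 0.62 below to 0.28 above. Without PBS replicate 3 the median of the members was -0.04, and without EnzR EVs replicate 3 it was -0.86, so single mice set its size. With each mouse left out in turn, the ranges of Pf4, Itga2b, Treml1 and Gp1bb crossed 0. With the replicate number as a block, 1 of 8 members, Gp9, had an unadjusted p under 0.05 (5.95% of all genes in that fit) and 0 passed when adjusted.

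EnzR EVs + HDL NPs against PBS uses the same PBS mice as the comparison before, so the 2 sets of values are not independent. Again 7 of 8 members had a log2 fold change below 0, with a median of -0.61 against -0.01 over all genes. For the lists of other cells the medians were -1.01 (B and plasma cell), -0.56 (marrow macrophage), -0.42 (erythroid), -0.31 (mast cell and basophil), -0.30 (T and NK cell), -0.24 (stroma and endothelium), -0.05 (monocyte) and 0.19 (neutrophil). Treml1 had -1.35 (SE 0.85, 95% interval -3.23 to 0.54), Ppbp -0.99 (SE 0.95), Pf4 -0.79 (SE 0.56), Gp9 -0.64 (SE 0.47), Gp1bb -0.59 (SE 0.59), Itga2b -0.16 (SE 0.36), Itgb3 -0.05 (SE 0.20) and Clec1b 0.15 (SE 0.39), whose sign also turned, to -0.071 with sample quality weights and -0.18 without the 2 lowest totals. None passed, all adjusted p from edgeR being 1. The counts were 0 by edgeR's adjusted p (0% of all genes), 0 by its unadjusted p under 0.05 (2.13%), 0 by DESeq2 (0.0106%), 0 by limma voom (0%) and 0 with quality weights (0.0797%). The groups overlapped for all 8 members, against 13.2% of all genes with groups apart. Without PBS replicate 3 the median was -0.23. With each mouse left out in turn, the ranges of Itga2b, Itgb3 and Clec1b crossed 0. Ppbp was -0.44 by limma voom and -0.31 with the replicate number as a block. With the replicate number as a block, 1 of 8, Treml1, had an unadjusted p under 0.05 (3.79% of all genes).

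EnzR EVs + HDL NPs against EnzR EVs asked what the nanoparticles added. Here 5 members had a log2 fold change above 0 and 3 below, with a median of 0.15 against 0.03 over all genes. The medians of the lists of other cells were above 0 too, at 0.44 (B and plasma cell), 0.43 (erythroid, 8 of 9 genes above 0), 0.36 (monocyte, 9 of 9), 0.29 (mast cell and basophil), 0.27 (neutrophil, 11 of 11), 0.25 (marrow macrophage), 0.22 (stroma and endothelium) and 0.13 (T and NK cell). Clec1b had 0.80 (SE 0.42, 95% interval -0.14 to 1.74, edgeR adjusted p = 0.472), higher in 3 of 3 mice than in any mouse given EnzR EVs alone. Its adjusted p ran from 0.163 to 0.801 over the other settings that gave one. Groups that do not overlap were found for this 1 of 8 members and for 17.6% of all genes, a like share. Gp1bb had -1.11 (SE 0.62, edgeR adjusted p = 0.484), Pf4 -0.64 (SE 0.58), Treml1 -0.57 (SE 0.94), Gp9 0.43 (SE 0.53), Ppbp 0.38 (SE 0.99), Itga2b 0.17 (SE 0.36) and Itgb3 0.12 (SE 0.20). By edgeR 0 members passed the adjusted (0% of all genes) or unadjusted (10.6%) threshold. DESeq2 called 0 (0.00532%), limma voom 0 (0%) and quality weights 0 (5.2%). With quality weights the median was -0.26 and without EnzR EVs replicate 3 it was 0.62, so its sign was not settled. With the replicate number as a block, 1 of 8, Clec1b, had an unadjusted p under 0.05 (18.2% of all genes, a like share).

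**Figure D4:**
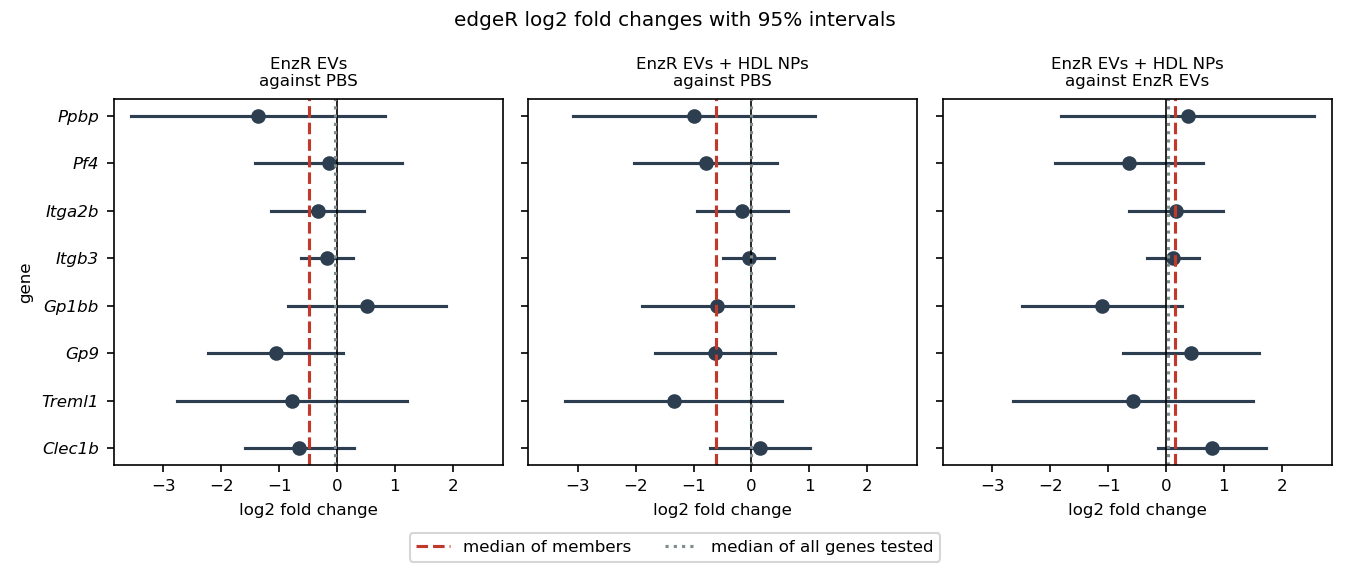
Log2 fold changes from edgeR (horizontal axis) of the 8 tested members in the 3 comparisons, with 95% intervals as bars, the median of the members as a dashed line and the median of all genes tested as a dotted line. Every interval crosses 0, and those of Ppbp and Treml1 are the widest.

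Gp6, left out by the filter, was fitted with no filter. Its log2 fold change was -1.91 (SE 1.04, edgeR adjusted p = 0.862) for EnzR EVs against PBS, -0.80 (SE 0.85) for EnzR EVs + HDL NPs against PBS and 1.11 (SE 1.07) between the vesicle groups. At most 27 counts per library stand behind these.

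Other platelet and megakaryocyte genes, listed by role, were measured beside the members. Of 55 listed, 53 were in the counts and 51 were tested. By edgeR 0 of 51 passed the adjusted threshold in any comparison, and 1 in each had an unadjusted p under 0.05, a share no higher than the 3.47%, 2.13% and 10.6% of all genes. In EnzR EVs against PBS that was Thbs1, the granule and matrix protein thrombospondin 1, which myeloid cells also make. Its log2 fold change was -1.38 (SE 0.23, edgeR adjusted p = 0.449), with groups apart, as for 7.96% of all genes. It was the 1 listed gene that DESeq2 called (DESeq2 adjusted p = 2.97e-05), beside 0.129% of all genes. The study had singled out Thbs1 on these same libraries, as the most significantly lowered gene and as one whose reduction HDL NPs prevented. Its values here are therefore not independent evidence. Between the vesicle groups that gene was again Thbs1, with 1.02 (SE 0.23, edgeR adjusted p = 0.461). Its groups were apart there, as for 17.6% of all genes. It passed by limma voom with sample quality weights (adjusted p = 0.0474), as did 5.2% of all genes. In EnzR EVs + HDL NPs against PBS the gene was Pdgfb, the growth factor chain PDGF-B, with -1.18 (SE 0.41, edgeR adjusted p = 1).

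By role, the 15 granule and secreted genes had 13 log2 fold changes below 0 after EnzR EVs, median -0.46, and the 12 cytoskeleton and signalling genes 11, median -0.40. The 15 surface receptors divided 8 above and 7 below, median 0.04, and the 9 transcription factors 6 above and 3 below, median 0.11. The lowest of these medians, that of the granule genes, lay above those of the erythroid, B and plasma cell, marrow macrophage and mast cell and basophil lists in the same comparison. In EnzR EVs + HDL NPs against PBS the medians were -0.37, -0.09, -0.11 and -0.08 in that order, and between the vesicle groups 0.11, 0.23, -0.18 and -0.05. The granule genes with the highest mean CPM were Thbs1 (1537 ± 403, 590 ± 34.8 and 1193 ± 226 CPM in PBS, EnzR EVs and EnzR EVs + HDL NPs), F13a1, coagulation factor XIII A, which monocytes also express (640 ± 183, 574 ± 81.6 and 619 ± 183 CPM), and Nbeal2, needed for alpha granules (536 ± 22.0, 570 ± 87.7 and 545 ± 117 CPM). Receptors were led by the tetraspanin Cd9 (152 ± 16.7, 149 ± 35.7 and 158 ± 25.6 CPM), Tmem40 and the ATP-gated channel P2rx1, signalling genes by Rasgrp2, the exchange factor for Rap1 (129 ± 31.2, 111 ± 38.0 and 135 ± 16.7 CPM), Ptgs1 and Rgs18, and transcription factors by Nfe2 (247 ± 37.0, 273 ± 49.0 and 211 ± 31.4 CPM) and Fli1. Several of these genes are also used by myeloid cells.

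The genes whose log2 CPM over the 9 libraries was most like the average of the members were Sdpr, which encodes the caveolar protein cavin 2 (Pearson r = 0.978), Gucy1a3, a subunit of soluble guanylate cyclase (0.947), Timp3, a metalloproteinase inhibitor (0.930), Mrvi1, a substrate of cGMP-dependent kinase (0.930), Dlc1 (0.923), Pgs1 (0.913), Ltbp1 (0.911), the platelet lipoxygenase gene Alox12 (0.908), Adamts2 (0.891) and Cyp4b1 (0.889). They were the 10 highest of all genes outside the group, a description with no test. Sdpr ran from 0.704 CPM in PBS replicate 1 to 8.58 CPM in PBS replicate 3. Alox12 was the 1 of the 10 that the platelet list held. That list is a selection, so absence from it does not mean that platelets or megakaryocytes lack a gene.

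Markers of other cells were read in the same way. Over 9 libraries the averaged log2 profile of the members had a Pearson r of 0.900 with the platelet cytoskeleton and signalling list, 0.791 with the granule list, 0.681 with the receptor list and -0.132 with the transcription factor list. The averaged profile of the 7 tested genes of the stroma and endothelium list followed the members as closely. It had r = 0.914 and its lowest value in replicate 1 of all 3 groups. This list held 9 genes in the counts, summing to 37.3 to 105 CPM in PBS mice, 52.7 to 93.6 CPM with EnzR EVs and 61.4 to 77.1 CPM with EnzR EVs + HDL NPs. Its leading gene Cxcl12, the niche chemokine, stood at 3.87, 32.7 and 55.3 CPM, then 4.94, 19.9 and 37.1 CPM, then 19.5, 32.6 and 31.2 CPM, so that the mice of each group fell in the same order as for Ppbp. The collagen genes Col1a1 and Col1a2 of this list did not follow that order. With EnzR EVs they stood at 19.75 and 11.5 CPM in replicate 1, against 3.94 and 3.67 CPM in replicate 2. Bglap, the osteoblast marker, was at 0 in 4 libraries, and Pecam1 of this list is also carried by platelets. The part of stromal content in the members' levels was not tested.

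For the remaining lists r was 0.463 (neutrophil, lowest in replicate 1 of all 3 groups), 0.596 (Itgam alone, also lowest in replicate 1 of all 3 groups), 0.411 (marrow macrophage), 0.105 (erythroid), 0.033 (monocyte), -0.158 (T and NK cell), -0.268 (B and plasma cell) and -0.301 (mast cell and basophil). The summed erythroid markers ran from 51.3 to 347 CPM over the libraries, and Hba-a1 and Hba-a2, alpha globin genes, were listed at 0 counts in every library although the beta globin gene Beta-s reached 277 CPM. The leading neutrophil gene S100a9 ran from 2229 CPM in EnzR EVs replicate 1 to 51360 CPM in EnzR EVs + HDL NPs replicate 2. The part of these cells in the members' levels was not tested.

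**Figure D5:**
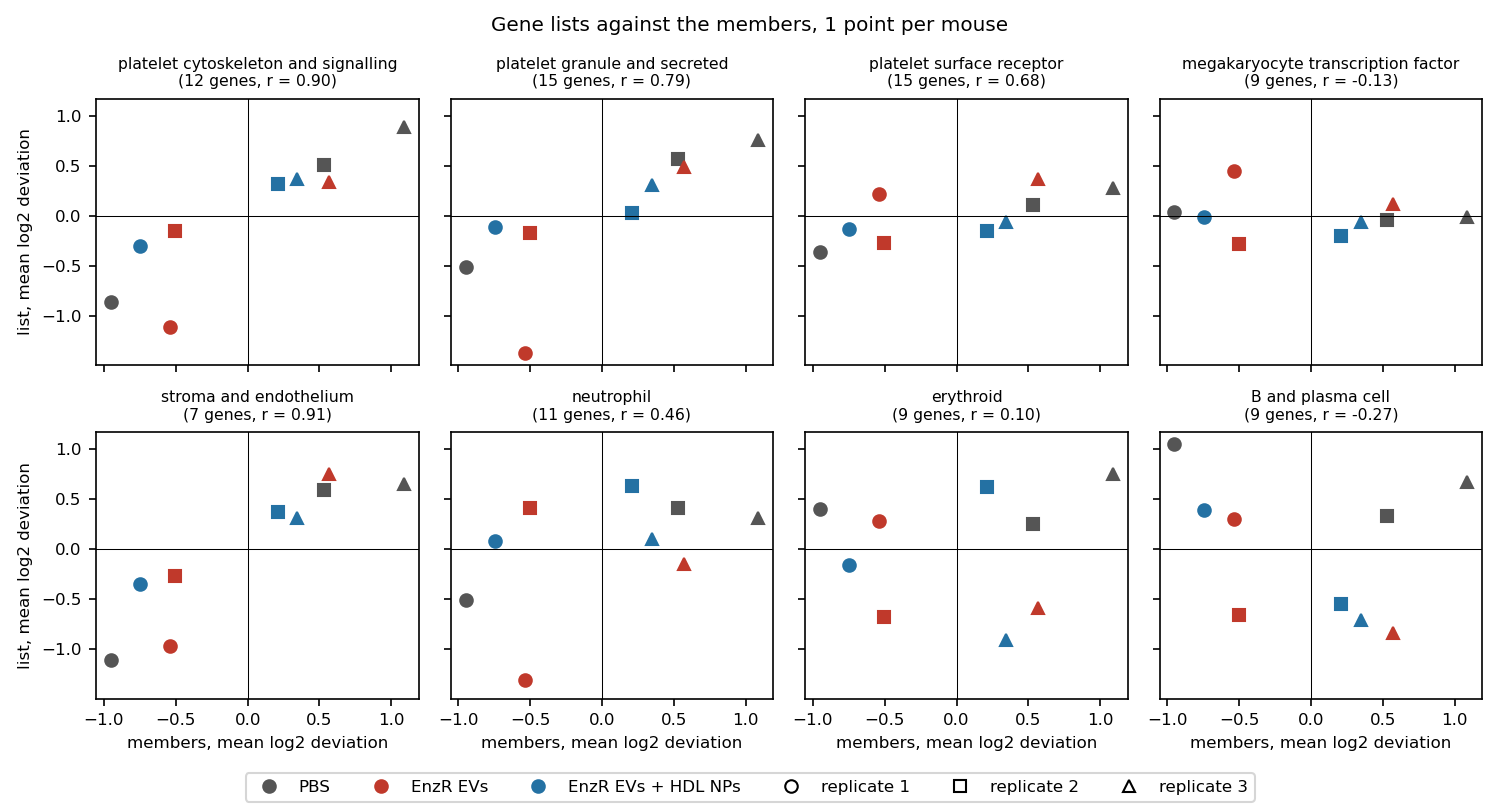
Mean log2 deviation of 8 gene lists (vertical axes) against that of the 8 tested members (horizontal axes), 1 point per mouse, colour for group and shape for replicate number, with Pearson r over the 9 libraries in each title. The points rise together for the cytoskeleton and signalling list (r = 0.90) and for stroma and endothelium (r = 0.91), and scatter for erythroid (r = 0.10) and transcription factor genes (r = -0.13).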

How the data were processed

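RNA-seq libraries (stranded total RNA, rRNA-depleted, single-end 75 bp reads) came from CD11b+ marrow cells of 9 mice. The authors deposited raw counts per gene for each library, without normalization, made after trimming by cutadapt 1.13; STAR aligned the reads to mm10 and HTSeq 0.6.1p1 counted them (versions from the submitters' processing notes). The strand setting of the counting is not given in the sources used here. The HDL NP dose differs between the labels and the study's methods and is not printed; the groups are the same under both.

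The tests were run with edgeR 4.0.16 under R 4.3.3 (TMM, default filter on low counts, robust quasi-likelihood fit to all 9 libraries, 1 coefficient per group, Benjamini-Hochberg adjustment over all 12553 genes, threshold 0.05). A prior count of 2 was used for log2 CPM. DESeq2 1.42.0 and limma 3.58.1 (voom, with and without sample quality weights) were alternatives, as were other normalizations, filters and subsets of libraries. Mice are taken as the replicates, 3 per group, and 0 samples were unassigned. PBS replicates 2 and 3, the most similar of the pairs within groups, were checked and were not duplicates. The fit was also run on simulated data with 200 changed genes, and no result here rests on that run.

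The members and gene lists were chosen with earlier results of these data known. Besides the members, the text names the 3 genes with the highest mean CPM in each of 4 platelet roles and those with an unadjusted edgeR p under 0.05, the 10 genes most like the members, and the leading or absent markers of other cells. One gene that this rule names is not reported here. Genes were matched by symbol, 9 of 9 members to GENCODE M21 on GRCm38 for coordinates and 8 of 9 to RefSeq upstream sequences on GRCm38.p6. Pearson r values have no p.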

Additional observations from a re-analysis of the deposited data

How the results depend on the processing

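In every setting run, 0 members passed the threshold in any comparison, and of the refitted log2 fold changes of single members 493 kept their sign and 23 did not. Between the vesicle groups, DESeq2 on 6 libraries gave Gp1bb, Gp9, Treml1 and Clec1b no adjusted p, so these could not pass there. With each replicate left out in turn, these ranges crossed 0. For EnzR EVs against PBS they were -0.93 to 0.35 (Pf4), -0.78 to 0.028 (Itga2b), -1.96 to 0.048 (Treml1) and -0.027 to 1.07 (Gp1bb). For EnzR EVs + HDL NPs against PBS they were -0.40 to 0.19 (Itga2b), -0.17 to 0.10 (Itgb3) and -0.18 to 0.57 (Clec1b). Between the vesicle groups they were -1.14 to 0.14 (Pf4), -0.039 to 0.62 (Itga2b), -0.016 to 0.31 (Itgb3) and -1.25 to 0.62 (Treml1). Gp1bb for EnzR EVs against PBS was -0.073 by limma voom and -0.073 without the 2 lowest totals. Clec1b for EnzR EVs + HDL NPs against PBS was -0.071 with sample quality weights and -0.18 without the 2 lowest totals. Between the vesicle groups, quality weights gave Ppbp -0.21, Itga2b -0.32 and Itgb3 -0.087, and leaving out the 2 lowest totals gave Itga2b -0.034 and Itgb3 -0.0089. The cause was not tested. Over the settings the median of the members ran from -0.86 to -0.04 for EnzR EVs against PBS, from -0.80 to -0.23 for EnzR EVs + HDL NPs against PBS, and from -0.26 to 0.62 between the vesicle groups.

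Of the other platelet genes, 0 passed in EnzR EVs against PBS by edgeR, but 1 did by DESeq2 (0.129% of all genes), 1 by DESeq2 on 6 libraries (0.0216%), 6 with quality weights (15.9%, so that 6 of 51 is no excess) and 1 without the 2 lowest totals (0.0397%). Between the vesicle groups 1 passed by DESeq2 on 6 libraries (0.234%) and 1, Thbs1, with quality weights (5.2%).

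Whether replicate numbers pair the mice is not given by the labels and differed by comparison. Deviations of same-numbered libraries correlated at a mean of 0.174 over 9 pairs (-0.175 to 0.492, 6 above 0.1) and those of differently numbered ones at -0.076 over 18. All 3 pairs of PBS and EnzR EVs mice were above 0.1 (0.473, 0.492 and 0.131), while those with EnzR EVs + HDL NPs mice were not all. With the replicate number as a block, edgeR called 1, 0 and 0 genes in the 3 comparisons and 0 members, 1 member in each had an unadjusted p under 0.05 (Gp9, Treml1 and Clec1b, against 0 without the block, and beside 5.95%, 3.79% and 18.2% of all genes), and the medians of the members were -0.51, -0.42 and 0.21. Ppbp with the block was -1.36, -0.31 and 1.05 in the 3 comparisons (edgeR adjusted p = 0.739, 0.968 and 0.414), against -1.36, -0.99 and 0.38 without it. Low counts limit Gp6, Treml1, Gp9 and, in 2 libraries, Ppbp. A minimum of 10 counts in every library left some members with no value.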
